A study of Mus musculus with 8 samples.

Results

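The proteasome genes of sorted dermal fibroblasts were compared between old and young mice. They were taken by name, as every gene whose symbol begins with Psma, Psmb, Psmc, Psmd or Psme followed by a digit, and 42 of the 17097 genes on the arrays qualified. Of these, 40 encode subunits, activators or assembly chaperones of the proteasome. The other 2 share only the name: Psmc3ip, a cofactor of meiotic recombination, and Psme3ip1, which binds an activator. Psmc6, Psmd10 and Psme4 were not analysed here.

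The old group held 4 mice of 18 months and the young group 4 mice of 2 months, with 1 array per animal; an animal of each age was collected on each day. The labels give no strain, sex, allele or treatment, and both groups went through the same isolation. Skin without subdermis was digested with collagenase, and cells were sorted that carried Pdgfra and CD34 and lacked CD45 (leukocytes), CD31 (endothelium), EpCam (epithelium), CD117 and CD24. Values are normalized log2 levels per probe set, so 1 unit is a 2-fold difference.

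The proteasome breaks down proteins tagged with ubiquitin. Its 20S core is a barrel of outer alpha rings, which gate the entry, and inner beta rings, which hold the cutting sites of Psmb5, Psmb6 and Psmb7. The 19S cap unfolds and feeds in substrates with its ATPases (Psmc), while its other subunits (Psmd) bind and remove ubiquitin. Under interferon, Psmb8, Psmb9 and Psmb10 are built into new cores in place of Psmb5, Psmb6 and Psmb7. These cores, with the activator formed by Psme1 and Psme2, make the immunoproteasome, which shapes peptides for class I antigen presentation.

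Over all genes, 17.5% were called between old and young fibroblasts by limma at an adjusted p under 0.05, with 1688 genes higher and 1310 lower in old. After a further quantile normalization these counts were 1415 and 1716. Array medians lay between 5.19 and 5.34. Of 8 fibroblast markers 0 were called by limma, and 6 lay below 0. The 3 with an unadjusted p under 0.05, all collagen or matrix genes, were Col1a1 (-0.19), Col1a2 (-0.56) and Lum (-0.16). The mean level of the 8 was 10.80 to 10.91 per array in old fibroblasts, against 10.92 to 11.08 in young ones, without overlap, and its part in the results below was not tested. Col1a2 weighs heavily in this mean, with the largest difference and the widest SDs of the 8 (0.34 in old, 0.33 in young). Its 1 probe set averaged 8.36 in old and 8.92 in young fibroblasts, and its groups overlapped. The gap in the mean is therefore not a fall shared by all 8 markers. The Col1a2 probe set was much dimmer than that of Col1a1 (12.4 in old and 12.6 in young fibroblasts). Whether it reads the main transcript was not tested. The sort markers Pdgfra and Cd34 averaged 8.52 and 11.68 in old fibroblasts, against 8.36 and 11.73 in young ones. Several arrays of each age stood apart in the proteasome genes, as described below. Each array was left out in turn, as planned. Old replicate 1 and young replicate 1 were also left out together, a pair chosen after the values were seen.

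Few proteasome genes passed the test between the ages. Among the 42 genes, 1 was higher and 1 was lower in old fibroblasts and 40 did not pass, which is 4.76% called against the 17.5% of all genes (9.87% higher and 7.66% lower). Both were called by limma, and 5 of the 42 had an unadjusted p under 0.05, against 29.7% of all genes. The gene that rose was Psme1, of the immunoproteasome activator, and the gene that fell was Psmd8, a lid subunit of the 19S cap. The median difference, old minus young, was -0.01 log2 units over the 42 genes and 0.01 over all genes. Old and young values overlapped for 39 of the 42, while old lay wholly above young in 2 and wholly below in 1. Over all genes, 21.3% had groups that did not overlap, 11.7% with old above and 9.66% with old below. Most of the 42 were well above the middle of the array, with 37 at a mean level above 8. Among the 8548 genes above the median level, 31.5% were called.

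**Figure D1:**
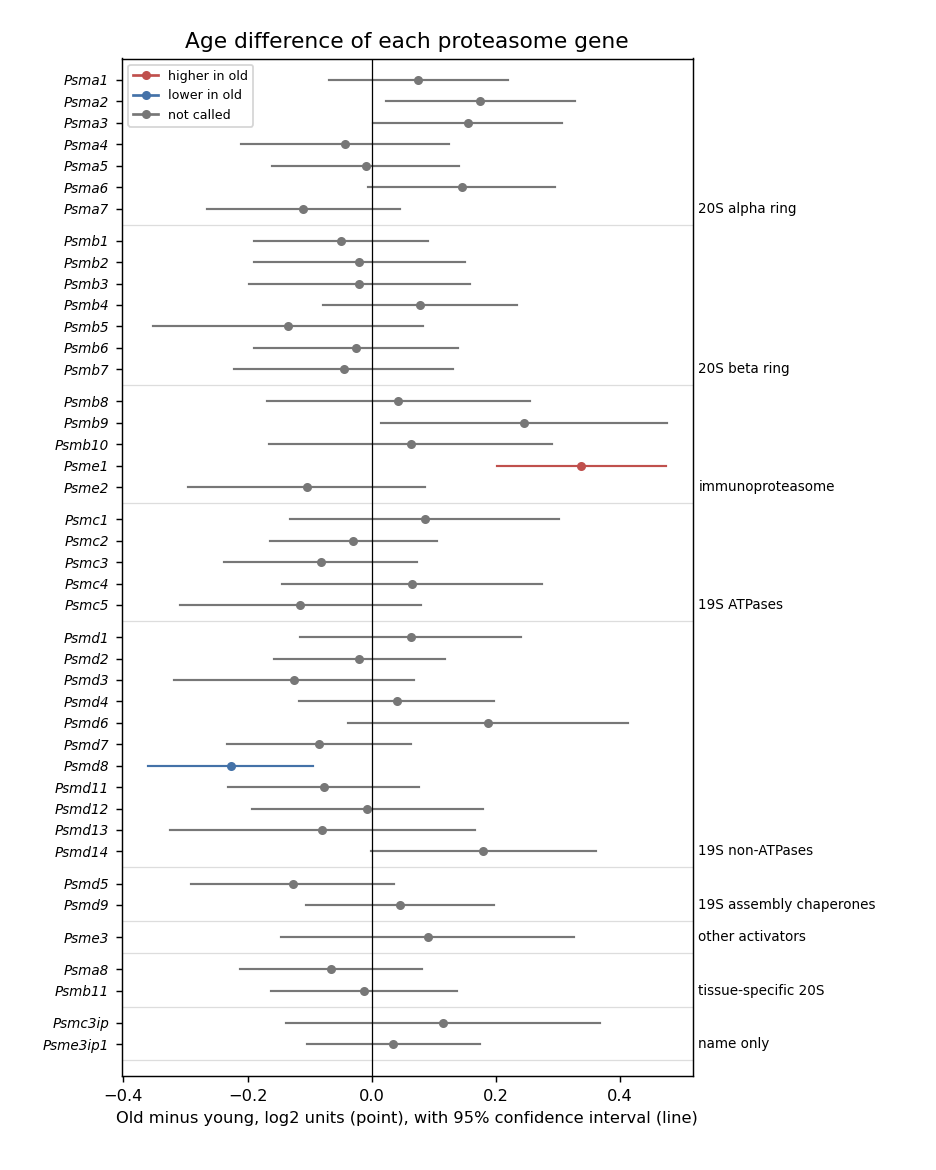
Difference between old and young fibroblasts for each of the 42 genes, in log2 units on the horizontal axis, with genes grouped by their place in the complex down the page. Points are limma estimates from 4 arrays per group and lines are 95% confidence intervals, each for its own gene. Psme1 lies to the right at 0.34, Psmd8 to the left at -0.23, and the intervals of most other genes include 0.

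The standard 26S particle, of core and cap, had 30 measured genes among 31 listed. None rose, 1 fell and 29 did not pass by limma, which is 3.33% called against 17.5% of all genes. An unadjusted p under 0.05 was found in 3 of the 30, against 29.7% of all genes. Their differences lay between -0.23 and 0.19, with 11 above 0 and 19 below it. A p that misses the threshold does not show that the groups were alike, so the intervals matter here. The 95% intervals of all 30 lay between -0.36 and 0.41, so the largest difference that any of them allowed for its gene was 1.33-fold. The median SE was 0.07 in these genes and 0.08 over all genes.

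In the alpha ring of the core 0 of 7 genes were called by limma, with 2 at an unadjusted p under 0.05 and 4 of 7 differences above 0. Psma2 had the largest difference, with 11.12, 10.86, 10.95 and 11.00 in old fibroblasts, against 10.76, 10.86, 10.82 and 10.79 in young ones. The difference was 0.18 ± 0.07 (SE, adjusted p = 0.113), and the groups met at 10.86. Psma3, a neighbour in the ring, had 11.30, 11.08, 11.10 and 11.24 in old fibroblasts and 11.03, 11.07, 11.04 and 10.96 in young ones. Its old values all lay above the young ones, by 0.01 at the closest, without a call (0.16 ± 0.07, adjusted p = 0.161). Psma1 (0.08) and Psma6 (0.15) also lay above 0, and Psma4 (-0.04), Psma5 (-0.01) and Psma7 (-0.11) below it.

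In the standard beta ring 0 of 7 genes were called by limma and 0 had an unadjusted p under 0.05. Psmb5, the chymotrypsin-like site, had 9.88, 9.94, 9.95 and 10.01 in old fibroblasts, against 9.79, 10.26, 10.19 and 10.08 in young ones. The young animals spread more widely (SD 0.21) than the old ones (SD 0.05), and young replicate 1 lay below all others. The difference was -0.14 ± 0.10 (SE, adjusted p = 0.405). Without young replicate 1 it was -0.23 (adjusted p = 0.0576), and without young replicate 2 it was -0.08 (adjusted p = 0.694). Psmb6, the caspase-like site, had 11.10, 11.01, 11.08 and 11.05 in old fibroblasts and 10.90, 11.21, 11.11 and 11.12 in young ones. Its difference of -0.03 ± 0.07 (SE) was smaller than the spread of either group. Psmb7, the trypsin-like site, had 10.20, 10.11, 10.32 and 10.36 in old fibroblasts and 10.14, 10.34, 10.38 and 10.31 in young ones. It differed by -0.05 ± 0.08 (SE, adjusted p = 0.764). The structural subunits Psmb1 to Psmb4 differed by between -0.05 and 0.08.

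The 5 measured ATPases of the cap had no call, and none had an unadjusted p under 0.05. Psmc5 had the largest difference, with 9.72, 9.83, 9.87 and 9.97 in old fibroblasts, against 9.77, 10.12, 10.02 and 9.94 in young ones (-0.12 ± 0.09, adjusted p = 0.428). Psmc1 (0.09), Psmc4 (0.07), Psmc2 (-0.03) and Psmc3 (-0.08) lay on both sides of 0.

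Of the 11 other cap subunits, Psmd8 fell and 10 did not pass. Psmd8, which sits in the lid that surrounds the deubiquitinating enzyme, had 9.80, 9.87, 9.87 and 9.86 in old fibroblasts, against 10.03, 10.15, 10.00 and 10.13 in young ones. Every old value lay below every young one. The difference was -0.23 ± 0.06 (SE, n = 4 each, 1.17-fold, limma adjusted p = 0.0265). It stayed between -0.20 and -0.25 with single arrays left out, but the call was lost in 5 of those 8 fits (adjusted p up to 0.0776). It was also lost with the specimen number as a replicate block (adjusted p = 0.0575), without old replicate 1 and young replicate 1 together (0.0616) and with the background measure in the fit (0.514). Psmd14, the deubiquitinating enzyme of the lid, went the other way without a call (0.18, adjusted p = 0.173). Psmd6 lay at 0.19 (adjusted p = 0.252), where old replicate 1 had 10.48 against 10.04 to 10.11 in the other old animals.

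Psmd1 and Psmd2, the large scaffold subunits of the base, differed by 0.06 and -0.02. The ubiquitin receptor Psmd4 differed by 0.04. The remaining lid subunits taken by name, Psmd3, Psmd7, Psmd11, Psmd12 and Psmd13, differed by -0.13, -0.09, -0.08, -0.01 and -0.08, all below 0 and none called. Sem1, a lid subunit outside the name rule, was counted with the assembly genes below. Its old values all lay below the young ones, without a call (-0.11, limma adjusted p = 0.221). The chaperones that assemble the cap base were not called either. Psmd5 had 8.18, 8.03, 8.06 and 7.89 in old fibroblasts and 8.17, 8.25, 8.15 and 8.10 in young ones (-0.13, adjusted p = 0.282), and Psmd9 differed by 0.05.

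The immunoproteasome had 1 of 5 genes higher in old fibroblasts, 0 lower and 4 that did not pass. This share of 20% called is near the 17.5% of all genes and under the 31.5% of genes above the median level. The gene was Psme1, and the inducible beta subunits Psmb8, Psmb9 and Psmb10 were not called. The median difference of the 5 was 0.06, against -0.02 in the 30 standard genes and 0.01 over all genes.

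Psme1 encodes the alpha subunit of the 11S activator, a ring that docks on the core and opens its gate without ATP. It had 10.34, 10.43, 10.32 and 10.42 in old fibroblasts, against 9.96, 10.03, 10.12 and 10.05 in young ones. All old animals lay above all young ones. The mean was 10.38 ± 0.06 in old and 10.04 ± 0.07 in young fibroblasts (SD, n = 4 each). Old exceeded young by 0.34 ± 0.06 (SE, log2 units, 1.26-fold, limma adjusted p = 0.00447). The call held with each of the 8 arrays left out (adjusted p up to 0.0156), and also without old replicate 1 and young replicate 1 together. It was lost when the level of non-specific probe sets, a measure of background given below, entered the fit (0.28, adjusted p = 0.384). That measure did not overlap between the ages, and in that fit 0.977% of all genes were called. All pathway calls named below were lost in it too, with differences that were larger for Ecpas (0.47), Ifngr2 (-0.69) and Pdia3 (-0.40) and smaller for Nlrc5 (0.75), Ngly1 (0.23) and Socs1 (-0.22).

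Psme2 encodes the beta subunit of the same ring. It had 9.91, 10.15, 10.18 and 10.08 in old fibroblasts, against 10.00, 10.24, 10.29 and 10.21 in young ones, a difference of -0.11 ± 0.09 (SE, adjusted p = 0.466). The groups overlapped. Within each array, Psme1 minus Psme2 was 0.43, 0.28, 0.14 and 0.34 in old fibroblasts, against -0.04, -0.21, -0.17 and -0.16 in young ones, so the groups did not overlap. This pair was chosen after its values were seen, and no test was run on it. A near-identical copy, Psme2b, is listed by RefSeq, and whether its transcript reaches the Psme2 probe set was not tested.

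Psmb9 replaces Psmb6 in the immunoproteasome. It had 8.91, 9.26, 9.28 and 9.22 in old fibroblasts, against 8.94, 8.73, 9.10 and 8.92 in young ones. Old replicates 2, 3 and 4 lay above every young animal, and old replicate 1 lay among the young ones. The difference was 0.25 ± 0.10 (SE, adjusted p = 0.142), and without old replicate 1 it was 0.33 and was called (adjusted p = 0.0311). Without old replicate 1 and young replicate 1 together it was 0.34 and not called (adjusted p = 0.0511). Its 3 probe sets did not move alike, with 0.25 in the brightest, 0.06 in the second and -0.02 in the dimmest.

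Psmb8, which replaces Psmb5, had 10.72, 11.11, 11.09 and 10.99 in old fibroblasts, against 10.81, 10.90, 11.03 and 11.00 in young ones (0.04 ± 0.09, adjusted p = 0.816). Psmb10, which replaces Psmb7, had 10.32, 10.77, 10.69 and 10.77 in old fibroblasts, against 10.62, 10.47, 10.59 and 10.62 in young ones (0.06 ± 0.10, adjusted p = 0.744). Old replicate 1 was the lowest of the old animals for all 3 inducible beta subunits. Without it Psmb8 differed by 0.13 and Psmb10 by 0.17, and without old replicate 2 Psmb10 differed by 0.02. Psmb8 differed by 0.00 without young replicate 1. None of these was called.

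**Figure D2:**
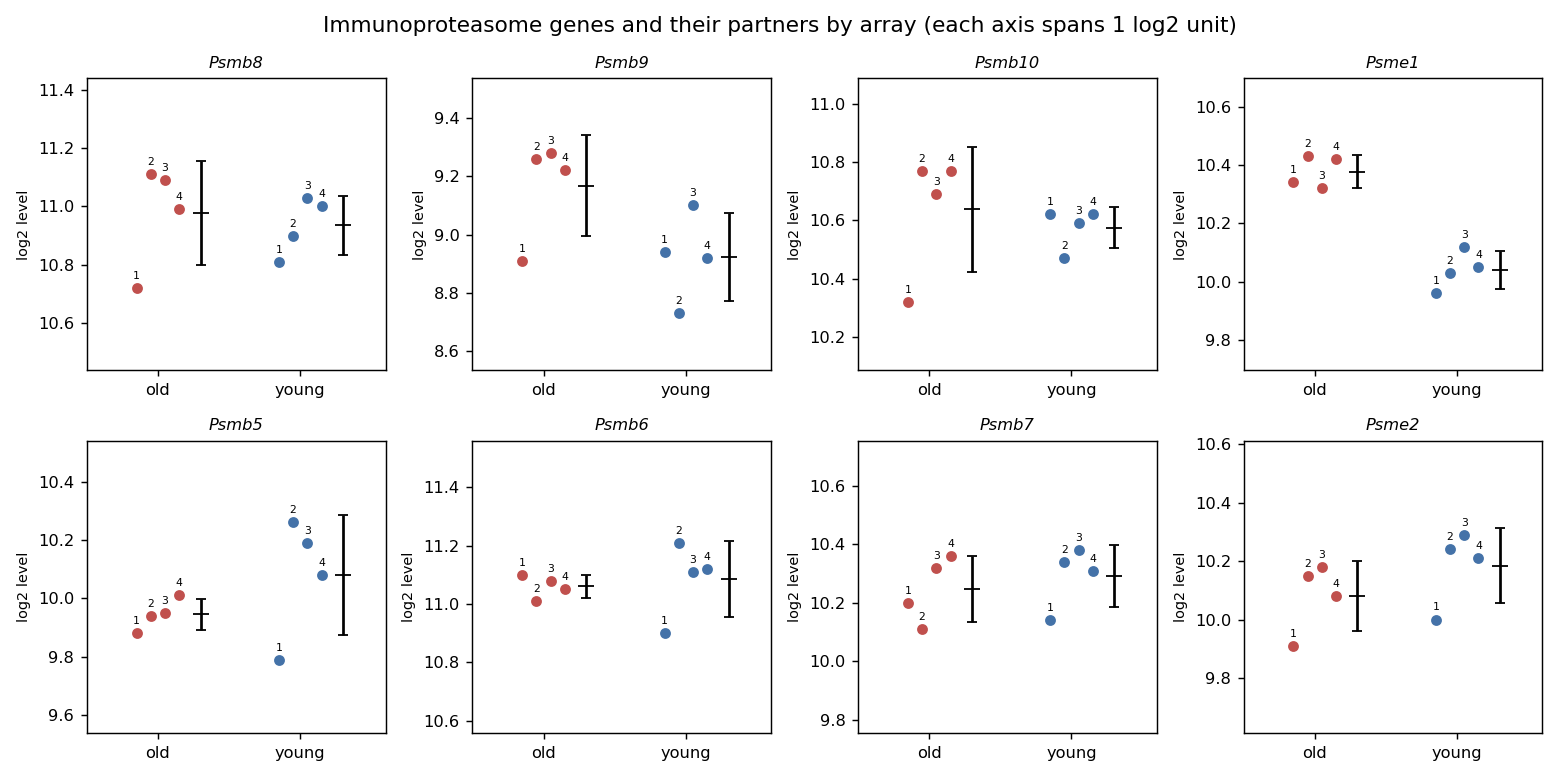
Log2 level of the immunoproteasome genes Psmb8, Psmb9, Psmb10, Psme1 and Psme2 and of the standard subunits Psmb5, Psmb6 and Psmb7, with old animals left and young animals right in each panel. Numbered points are replicates, and the bar beside them is the mean ± SD of 4 arrays. Old and young points separate for Psme1, while old replicate 1 lies below the other old animals for Psmb8, Psmb9 and Psmb10.

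Whether inducible subunits gained on the subunits they replace was asked within each array, as the difference of the log2 levels of both genes. Only the change of this difference with age can be read, since levels of different probe sets are not comparable. For Psmb8 minus Psmb5 it was 0.84, 1.17, 1.14 and 0.98 in old fibroblasts, against 1.02, 0.64, 0.84 and 0.92 in young ones. For Psmb9 minus Psmb6 it was -2.19, -1.75, -1.80 and -1.83 in old fibroblasts, against -1.96, -2.48, -2.01 and -2.20 in young ones. For Psmb10 minus Psmb7 it was 0.12, 0.66, 0.37 and 0.41 in old fibroblasts, against 0.48, 0.13, 0.21 and 0.31 in young ones. All 3 pairs overlapped between the ages.

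The age changes of these differences were 0.18 ± 0.11 for Psmb8 over Psmb5, 0.27 ± 0.15 for Psmb9 over Psmb6 and 0.11 ± 0.13 for Psmb10 over Psmb7 (SE, n = 4 each). By 2-sided exact permutation tests over arrays the p-values were 0.2, 0.143 and 0.514, and adjusted over the 3 pairs they were 0.3, 0.3 and 0.514. The smallest p that 4 against 4 arrays allow is 0.0286. A shift towards the inducible subunits was therefore not shown in any of the 3 pairs, and all 3 estimates lay above 0.

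**Figure D3:**
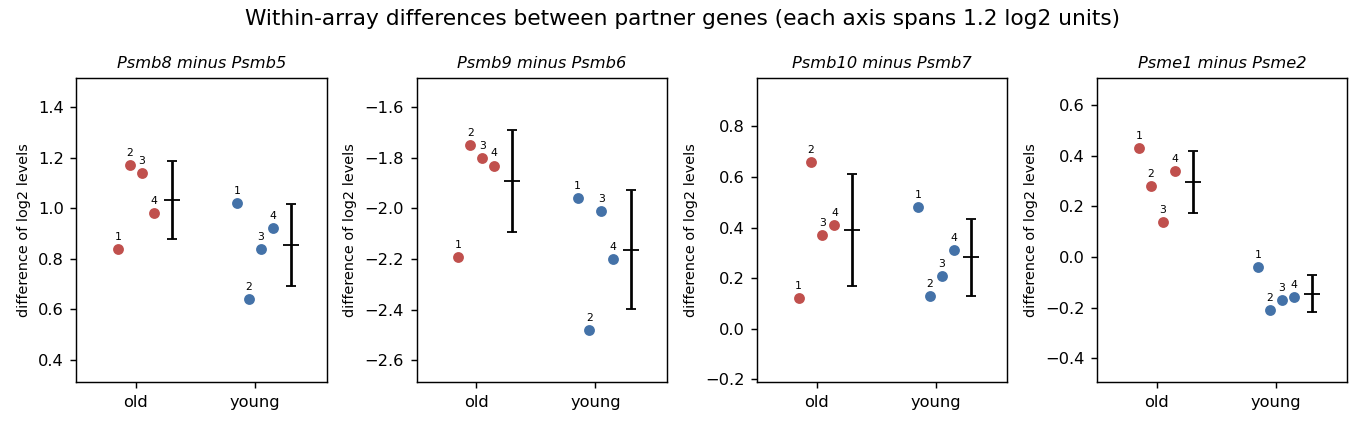
Difference of log2 levels between partner genes in each array, with old animals left and young animals right. Numbered points are replicates, and bars are the mean ± SD of 4 arrays. The inducible and standard pairs overlap between the ages, whereas Psme1 minus Psme2 lies between 0.14 and 0.43 in old and between -0.21 and -0.04 in young.

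Promoter letters are shown for the activator pair, of which 1 gene was called and 1 was not, and for the first 2 swapped pairs of beta subunits. A promoter window from RefSeq was found for 35 of the 42 genes. The stretches run 5′ to 3′ from 100 bases before the annotated start to 20 bases after it, in build GRCm38.p6. Psme1 is at chr14:55578394-55578513 (+ strand), Psme2 at chr14:55591082-55591201 (- strand), Psmb8 at chr17:34198095-34198214 (+ strand), Psmb5 at chr14:54617976-54618095 (- strand), Psmb9 at chr17:34187311-34187430 (- strand) and Psmb6 at chr11:70525257-70525376 (+ strand). Capitals mark matches, on either strand, to the interferon-stimulated response element (a pair of GAAA with 2 bases between them), the gamma-activated site TTCNNNGAA or the antioxidant response element TGACNNNGC.
Psme1: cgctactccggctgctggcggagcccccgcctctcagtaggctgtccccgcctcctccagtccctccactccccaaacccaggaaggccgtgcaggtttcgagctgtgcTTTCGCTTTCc
Psme2: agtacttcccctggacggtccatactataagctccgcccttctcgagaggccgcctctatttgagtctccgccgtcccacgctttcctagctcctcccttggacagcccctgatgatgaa
Psmb8: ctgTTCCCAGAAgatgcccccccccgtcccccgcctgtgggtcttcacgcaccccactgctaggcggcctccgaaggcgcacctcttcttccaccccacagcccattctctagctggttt
Psmb5: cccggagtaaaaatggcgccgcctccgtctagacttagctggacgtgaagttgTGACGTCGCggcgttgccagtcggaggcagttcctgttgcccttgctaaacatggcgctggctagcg
Psmb9: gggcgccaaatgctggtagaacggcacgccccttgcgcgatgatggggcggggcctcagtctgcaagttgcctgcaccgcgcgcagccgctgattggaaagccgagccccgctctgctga
Psmb6: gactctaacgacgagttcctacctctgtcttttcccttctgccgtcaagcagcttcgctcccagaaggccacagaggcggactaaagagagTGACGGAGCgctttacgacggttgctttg

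In Psme1 the response element letters lie just after the annotated start, on the reverse strand. In full windows of 300 bases these letters were found in 4 of 39 windows of the 42 genes (10.3%), those of Psme1, Psmb3, Psmd4 and Psmd9, and in 3.44% of all 32851 windows. The gamma-activated site letters were found in 2 of 39 (Psmb8 and Psmd2, 5.13%), and in 8.30% of all. The antioxidant response element letters were found in 4 of 39 (Psmb5, Psmb6, Psmd9 and Psmd12, 10.3%), against 12.4% of all. CCAAT was found in 15 of 39 (38.5%), against 37.4% of all. Of the 4 genes with response element letters only Psme1 was called, and the antioxidant letters were in none of the called genes. A match is a run of letters and not a shown binding site.

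The activator Psme3, which forms a ring of its own in the nucleus, had 9.76, 9.91, 9.88 and 9.91 in old fibroblasts, against 9.55, 10.08, 9.67 and 9.80 in young ones (0.09 ± 0.11, adjusted p = 0.635). Psma8, the alpha subunit of the testis, had 3.87, 3.79, 3.81 and 3.80 in old fibroblasts and 4.03, 3.83, 3.86 and 3.81 in young ones. Psmb11, the beta subunit of the thymic cortex, had 4.39, 4.47, 4.55 and 4.59 in old fibroblasts and 4.61, 4.47, 4.45 and 4.52 in young ones. Both stayed below every array's median at both ages. Psmc3ip had 5.69, 5.88, 6.13 and 5.84 in old fibroblasts and 5.57, 5.86, 5.67 and 5.98 in young ones (adjusted p = 0.558), and Psme3ip1 differed by 0.04.

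The 42 genes had 64 probe sets, and 14 genes had more than 1. In 5 of these 14 (Psmb8, Psmb9, Psmc1, Psmd4 and Psmd9) the probe sets differed in sign, with no call in any of them. The 22 further probe sets held 2 calls, both of Psmd11 and both lower in old. Those were dim sets, at 4.77 in old and 5.07 in young fibroblasts (-0.31, adjusted p = 0.0276) and at 3.96 in old and 4.24 in young fibroblasts (-0.28, adjusted p = 0.0316). The brightest of the 5 Psmd11 sets, at 9.42 in old and 9.50 in young fibroblasts, differed by -0.08. With each probe set tested on its own, 16.8% of all 28898 were called.

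Standard proteasome genes moved together between animals of 1 age. Young replicate 1 was the lowest young animal in 26 of 30 standard genes and young replicate 2 the highest in 27 of 30. Over all genes these shares were 26.1% and 29.1%. The standard genes had a median level of 9.97, against 5.99 over all genes. Other genes of like level were not compared at either age, so the pattern may not be particular to the proteasome. The mean level of the 30 genes was 9.96, 9.85, 9.92 and 9.92 in old fibroblasts, against 9.79, 10.03, 9.93 and 9.91 in young ones. The gap between young replicates 2 and 1 was 0.24, while the means of the ages, 9.91 ± 0.04 in old and 9.91 ± 0.10 in young fibroblasts (SD, n = 4 each), lay within 0.01 of each other. Psmd13 ranged most widely of the 30 among the young, with 8.45, 8.16, 8.26 and 8.23 in old fibroblasts and 8.07, 8.60, 8.37 and 8.38 in young ones.

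Among old animals, replicate 2 was the lowest in 20 of 30 standard genes (28.5% of all genes) and replicate 1 the highest in 13 of 30 (24.8%). For the immunoproteasome, by contrast, old replicate 1 was the lowest in 4 of 5 genes (34.0% of all genes). The background measure, the mean log2 level of 8 non-specific probe sets, was 5.53, 5.82, 6.18 and 5.78 in old fibroblasts, against 6.62, 6.34, 6.42 and 6.36 in young ones. Old replicate 1 had its lowest value and young replicate 1 its highest. The part of this background in the pattern of the arrays was not tested.

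**Figure D4:**
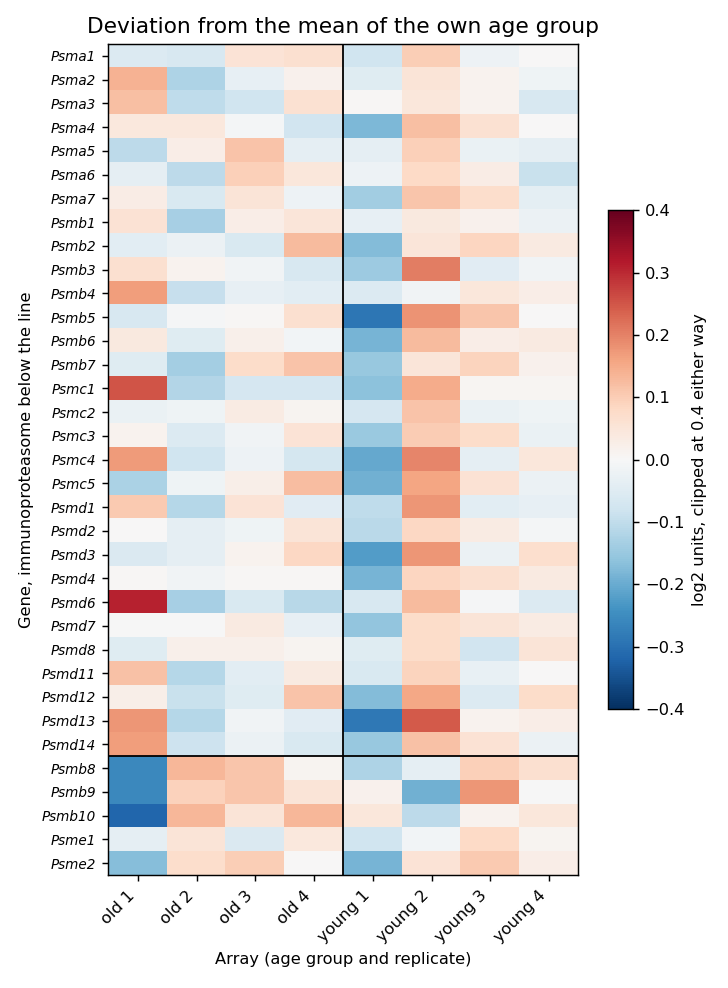
Deviation of each gene from the mean of its own age group, in log2 units as colour, with the 30 standard genes above the line and the 5 immunoproteasome genes below it. Columns are the 4 old and then the 4 young arrays. The young 1 column is low and the young 2 column high through most standard genes, and old 1 is low for Psmb8, Psmb9 and Psmb10.

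Genes that assemble and regulate the proteasome had 1 of 14 measured genes higher, 0 lower, 13 that did not pass and a median difference of 0.00. That is 7.14% called, against 17.5% of all genes. Ecpas, an adaptor that binds core and cap, had 6.85, 6.92, 7.01 and 6.87 in old fibroblasts, against 6.61, 6.65, 6.50 and 6.55 in young ones. All old values lay above the young ones (0.34 ± 0.06, 1.26-fold, adjusted p = 0.00566), and the call held with each array left out. Pomp, the maturation factor of new cores, had 10.71, 10.63, 10.63 and 10.66 in old fibroblasts and 10.62, 10.72, 10.62 and 10.65 in young ones (0.01 ± 0.06). Psmf1, an inhibitor of the core in vitro, had 8.47, 8.22, 8.37 and 8.15 in old fibroblasts and 8.34, 8.33, 8.23 and 8.35 in young ones (-0.01 ± 0.08). With its most variable probe set Psmf1 was called higher (0.39, adjusted p = 0.0471).

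Of 10 measured genes that carry or extract ubiquitinated proteins, 1 rose and 1 fell, which is 20% called against 17.5% of all genes. The 2 are cofactors of the segregase Vcp. Ufd1 had 8.43, 8.18, 8.34 and 8.47 in old fibroblasts, against 8.15, 8.00, 7.98 and 8.10 in young ones (0.30 ± 0.08, adjusted p = 0.0263). Nsfl1c had 9.44, 9.43, 9.52 and 9.45 in old fibroblasts, against 9.60, 9.84, 9.70 and 9.72 in young ones (-0.26 ± 0.07, adjusted p = 0.0244). Neither overlapped between the ages, and single arrays left out ended the call of Ufd1 in 6 of 8 fits and of Nsfl1c in 5 of 8. The shuttles Ubqln1 and Ubqln2 lay at 0.26 and 0.32 without a call. Of the 10 differences 9 lay above 0 and 1 below it, with a median of 0.17. By limma 5 of the 10 had an unadjusted p under 0.05, against 29.7% of all genes. Of 6 genes of ubiquitin and its activating enzymes only Uba6 had a value, near the floor at 3.84 in old and 3.92 in young fibroblasts.

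Nfe2l1 is the transcription factor that raises proteasome subunit genes when the proteasome is blocked. It had 8.71, 8.90, 8.86 and 9.13 in old fibroblasts, against 8.66, 8.93, 8.81 and 8.91 in young ones (0.07 ± 0.10, adjusted p = 0.683). Ngly1, which strips the sugars of Nfe2l1 so that it can be activated, had 8.00, 7.56, 7.54 and 8.01 in old fibroblasts, against 7.53, 7.17, 7.41 and 7.19 in young ones. It rose by 0.45 ± 0.13 (SE, adjusted p = 0.042), the closest values being 0.01 apart, and the call was lost in 5 of 8 fits with an array left out. It was also lost with median centring (adjusted p = 0.0529), quantile normalization (0.0745) and array weights (0.0581).

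Maff, a small partner factor of Nfe2l1 and Nfe2l2, had 9.84, 9.91, 9.69 and 10.33 in old fibroblasts, against 9.28, 8.76, 9.38 and 9.66 in young ones (0.67 ± 0.19, adjusted p = 0.0346). Its call was lost with array weights and in 5 of 8 fits with an array left out (adjusted p up to 0.0866). Nfe2l2, the oxidative stress factor, had 9.11, 9.07, 9.09 and 9.43 in old fibroblasts and 8.76, 8.99, 9.04 and 9.01 in young ones. It was not called (0.23, adjusted p = 0.154), but was with the mean over its probe sets (0.35, adjusted p = 0.0173). In all, 2 of 7 genes of this axis were called, both higher. This share of 28.6% compares with 17.5% of all genes and 31.5% of those above the median level.

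The interferon gamma axis, which induces the immunoproteasome, held calls in both directions. Of 16 measured genes 5 rose, 2 fell and 9 did not pass, with a median of 0.29. That is 43.8% called, against 17.5% of all genes and 31.5% of those above the median level. Ifngr2, a receptor chain, had 8.06, 7.88, 7.75 and 7.69 in old fibroblasts, against 8.35, 8.49, 8.19 and 8.24 in young ones. It fell by 0.47 on the log2 scale (limma adjusted p = 0.00841). Socs1, a feedback inhibitor of the receptor, had 4.81, 5.10, 5.20 and 5.13 in old fibroblasts, against 5.74, 5.31, 5.64 and 5.85 in young ones. It fell by 0.58 (adjusted p = 0.0107). Socs1 was dim, and each of its old values lay below the median of its array (5.19, 5.27, 5.25 and 5.34).

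Among the genes of this axis that rose, the transcription factor Irf8 had 5.57, 6.44, 6.02 and 6.12 in old fibroblasts, against 5.04, 5.23, 5.67 and 5.63 in young ones (0.65, adjusted p = 0.0434). The GTPase Gbp2 had 10.29, 10.25, 9.96 and 10.23 in old fibroblasts, against 9.53, 9.11, 10.06 and 9.74 in young ones (0.57, adjusted p = 0.0473). The ages overlapped in both genes. Single arrays left out ended the call of Irf8 in 5 of 8 fits and of Gbp2 in 6 of 8 (adjusted p up to 0.108 and 0.106). Gbp2 was called in only 5 of its 19 alternatives, and median centring and quantile normalization ended its call as well. The kinase Jak2 (0.42), the factor Irf9 (0.37) and the GTPase Iigp1 (0.42) also rose. Jak2, Irf9 and Iigp1, like Ifngr2 and Socs1, did not overlap between the ages. Their calls held in all 8 fits with an array left out. Irf1, a direct inducer of Psmb9, had 11.77, 11.77, 11.75 and 11.83 in old fibroblasts, against 11.56, 11.48, 11.72 and 11.62 in young ones. The old values lay above the young ones without a call (0.19 ± 0.07, adjusted p = 0.0842).

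In the path that loads peptides on class I molecules, 1 of 9 measured genes rose and 1 fell. That is 22.2% called, against 17.5% of all genes. The median difference was -0.02, with 4 differences above 0 and 5 below it. Of 12 listed genes 3 had no value: Tap1, Tap2 and B2m. Nlrc5, the transactivator of class I genes and of Psmb9, had 7.27, 7.15, 7.16 and 7.06 in old fibroblasts, against 6.07, 6.14, 6.65 and 6.27 in young ones. It rose by 0.88 ± 0.12 (SE, 1.84-fold, adjusted p = 0.000888), and the call held with each array left out. The class I genes H2-K1 (-0.03) and H2-D1 (-0.02) were not called, though H2-D1 was called in 1 of its 19 alternatives. Pdia3, of the loading complex, had 6.60, 6.34, 6.59 and 6.45 in old fibroblasts and 6.78, 7.05, 6.88 and 6.72 in young ones (-0.36, adjusted p = 0.0206), and the call was lost in 4 of 8 fits with an array left out. Only 1 probe set stood for Pdia3, much dimmer than those of Calr and Canx in the same path (11.70 and 11.42 in old fibroblasts). Whether it reads the main transcript was not tested.

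**Figure D5:**
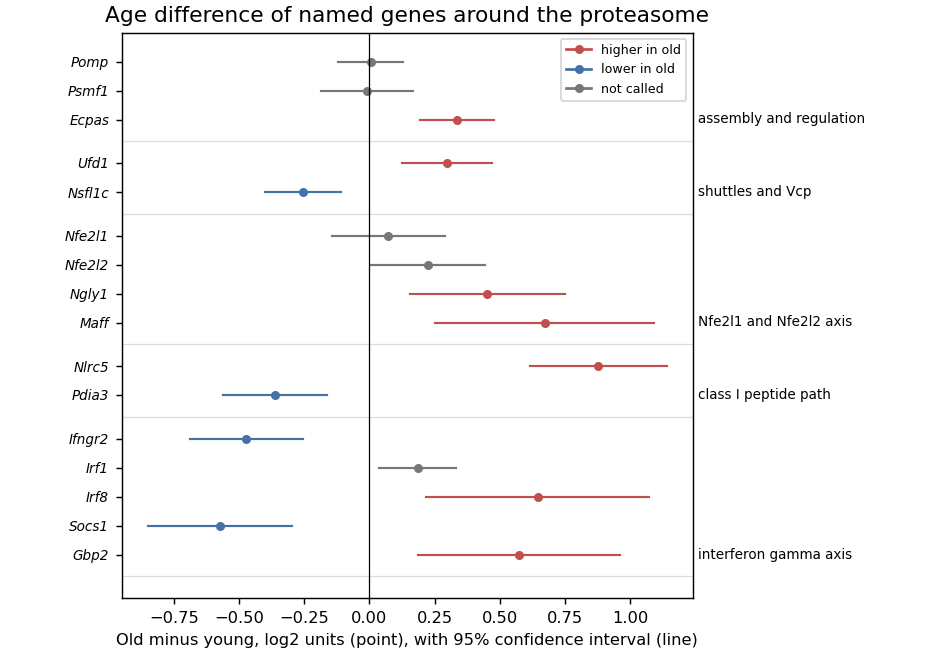
Difference between old and young fibroblasts for the 16 named genes around the proteasome, in log2 units, grouped by list down the page. Points are limma estimates from 4 arrays per group and lines are 95% confidence intervals. Nlrc5 lies farthest to the right at 0.88 and Socs1 farthest to the left at -0.58, while Pomp and Psmf1 lie close to 0.

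Some markers of other cells were called between the ages, with the shares given below. Leukocytes make much immunoproteasome, and their 10 markers had 1 call higher and 1 lower, with a mean level per array of 5.28 to 5.41 in old and 5.35 to 5.44 in young fibroblasts. Ptprc, which encodes the CD45 of the sort gate, had 3.80, 3.92, 3.82 and 3.99 in old fibroblasts and 3.76, 3.74, 3.70 and 3.64 in young ones, near the floor of the arrays. Lyz2 rose by 1.08 and the macrophage receptor Csf1r fell by 1.92. Of 6 keratinocyte markers 2 rose and 1 fell, and their mean level was 7.99, 8.08, 8.43 and 8.97 in old fibroblasts, against 7.48, 7.30, 8.31 and 7.42 in young ones. Endothelial markers had 1 call higher of 4, and mast cell and melanocyte markers 1 higher of 4. The shares called were 20% of leukocyte, 50% of keratinocyte and 25% of endothelial markers. For mast cell and melanocyte markers the share was also 25%, against 17.5% of all genes. The part of these markers in the change of Psme1 was not tested. In bulk samples, fewer cells of a type and less RNA per cell cannot be told apart.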

How the data were processed

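Sorted dermal fibroblasts of 4 old and 4 young mice were measured on Affymetrix mouse perfect-match arrays. Total RNA was amplified before labelling, per the labels' protocols. The authors deposited 1 log2 value per probe set and array, from RMA and affy per the submitters' processing notes, which give no versions. A change common to nearly all transcripts cannot be seen after such normalization. Of 45141 probe sets, 28898 had 1 symbol in the platform annotation. The brightest probe set on average stood for a gene, which gave 17097 genes, with no filter on low values. The ages were fitted in limma 3.58.1 under R 4.3.3 (no covariate, 2-sided, Benjamini-Hochberg over all genes, threshold 0.05). Unless another test is named, each adjusted p is limma's. The fit was tested on simulated data in which 200 of 17097 genes were changed. It recovered 1.49% of changes of 0.25 log2 units, 58.2% of changes of 0.50 and 93.9% of changes of 1.00. Small changes were thus mostly missed there. The real data had 2998 calls, so these shares need not hold for them. Pairs of genes were compared by exact permutation over arrays. The background measure is the mean of 8 non-specific probe sets with 18 or more G and C bases. All 42 symbols matched RefSeq genes of GRCm38.p6, used for names and promoters. The members and lists were chosen with earlier results of these data known. Genes with values per array are the called members, the immunoproteasome and its standard partners, the largest difference of each list, up to 4 called genes of each pathway list and fixed regulators. Psma3, Psmd13 and Ptprc were added after their values were seen. Figures were drawn with matplotlib 3.10.9. The number of arrays and the rounding of the values to 2 decimals limit the precision.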

Additional observations from a re-analysis of the deposited data

Results flagged for a closer look

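In 9 of 122 groups of 4 arrays, the highest or lowest array stood far from the nearest other one relative to the range of the group, where chance gives about 1 in 20. Old replicate 1 was apart for 4 genes: Psmb9 at 8.91 (others 9.22 to 9.28), Psmd8 at 9.80 (9.86 to 9.87), Psmc1 at 10.25 (9.88 to 9.93) and Psmd6 at 10.48 (10.04 to 10.11). Old replicate 2 was apart for Psmb1 at 9.92 (10.08 to 10.11) and for Psmd4 at 9.56, where the others all read 9.58. Young replicate 2 was apart for Psma5 at 9.80 (9.67 to 9.68). Old replicate 4 was apart for Nfe2l2 at 9.43 (9.07 to 9.11), and young replicate 3 for Psmf1 at 8.23 (8.33 to 8.35). Values are log2 levels rounded to 2 decimals in the table, so the gaps of Psmd4 and Psmd8 span few rounding steps.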

How the results depend on the processing

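Members were refitted under 19 alternatives (18 for Psma8, Psmb11 and Psmc3ip, which lie below the median level), of which the background covariate and the fit without old replicate 1 and young replicate 1 were chosen after seeing the data. Of the 40 members not called, 38 stayed uncalled in all that were run for them, and 20 of the 40 changed sign in at least 1. The exceptions were Psmb9 without old replicate 1 (0.33) and Psmd11 with the probe set of highest variance (-0.31). With the background covariate 167 of 17097 genes were called, against 2998 without it, and the counts of members higher and lower were 0 and 0. The count of members lower, and of standard genes lower, was 1 at first, 0 with the replicate block, 0 without old replicate 1 and young replicate 1, and 2 with the probe set of highest variance. With single arrays left out it ranged from 0 to 1. It was 0 without old replicate 1, 2 or 3 or young replicate 2 or 4. The count of members higher, and of immunoproteasome genes higher, ranged from 1 to 2, being 2 without old replicate 1. Psmf1 turned to 0.39 with its probe set of highest variance. The cause of these changes was not tested. The 3 pair differences were run without each array, with the block, with quantile normalization and with other probe set choices. They stayed above 0, with Psmb10 minus Psmb7 at 0.02 without old replicate 2. With the block the smallest possible p is 0.125, so a call could not be made there. The labels do not tie specimen numbers to a shared day. Same-numbered deviations correlated at 0.29, 0.05, -0.04 and 0.22 for numbers 1, 2, 3 and 4. The highest correlation of each old animal with a young animal of another number was -0.04, 0.21, 0.15 and 0.09. Numbers 1 and 4 thus matched their own number best, while 2 and 3 did not. Whether equal numbers share a day is not settled by these values. The replicate block ended the call of Psmd8 (adjusted p = 0.0575) and kept that of Psme1.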
